A study of Rattus norvegicus with 421 samples.

Results

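The genes of fatty acid synthesis and desaturation were followed through every treated group of a rat liver study. The 10 members were Srebf1, Acly, Acaca, Fasn, Me1, Elovl6, Elovl5, Scd, Fads1 and Fads2. They were taken by gene symbol, each read from its brightest probe set on average, out of 10411 genes that a probe set with 1 symbol represented. All 10 were measured, and none was lost to a filter.

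The study describes male Wistar Hanover rats of 8 to 10 weeks that received a compound or its vehicle daily by gavage. That description does not cover every compound of the series, acetaminophen and saline being among those left out. Livers were run on Affymetrix RAE230A arrays, and each array is counted as 1 animal. In the 4 vehicle groups of 6 arrays, neighbouring arrays mostly read alike in pairs for Scd and Fasn, such as 11.03 and 11.09 for Fasn. Such a pair may share a liver, which the labels do not say, and the standard error would then be too small. The series held 293 arrays in 98 treated groups of 30 compounds, and 30 corn oil, 86 CMC and 12 saline arrays in 38 vehicle groups. Treatment lasted 1, 3, 7 or 14 days, except for acetaminophen (Aap), which was sampled at 6, 12, 24 and 48 h. A treated group mostly held 3 animals that the study had selected on histopathology, so the spread is that between selected animals. The groups described at length were ethionine (ETH, 200 mg/kg), Aap (4250 mg/kg), diethyl-stilbestrol (DES, 10 mg/kg), C.I Direct Black (CIDB, 146 mg/kg), cyproterone acetate (CPA, 100 mg/kg), piperonyl-butoxide (PBO, 1200 mg/kg), Wy-14643 (Wy, 60 mg/kg) and dehydroepiandrosterone (DHEA, 600 mg/kg). Groups named more briefly were 3-methylcholanthrene (3-MC, 25 mg/kg), 2-nitrofluorene (2-NF, 44 mg/kg), 1,4-dichlorobenzene (DCB, 300 mg/kg), methylendianiline (MDA, 50 mg/kg), aflatoxin B1 (AB1, 0.24 mg/kg), acetamide (AA, 3000 mg/kg), methapyrilene (MPy, 60 mg/kg), thioacetamid (TAA, 19.2 mg/kg), nifedipine (Nif, 3 mg/kg), allyl alcohol (AlAl, 36 mg/kg), methylcarbamate (Mcarb, 400 mg/kg), phenobarbital (PB, 80 mg/kg), propranolol (Prop, 40 mg/kg), clonidine (Clon, 0.1 mg/kg), ibuprofen (Ibup, 94 mg/kg) and prazosin (Praz, 1 mg/kg). The other 6 compounds entered the counts over all groups: 2-acetylaminofluorene (2-AAF, 1.2 mg/kg), cefuroxime (CFX, 250 mg/kg), dimethylnitrosamine (DMN, 4 mg/kg), NNK (4-(methylnitrosamino)-1-(3-pyridyl)-1-butanone, 20 mg/kg), N-Nitrososmorpholine (NNM, 3.5 mg/kg) and N-nitrosopiperidine (NPip, 20 mg/kg). The vehicles were corn oil for CPA, CIDB, 3-MC, 2-NF, DCB, MDA and DMN, saline for Aap, and carboxymethylcellulose (CMC) for the others.

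In hepatocytes, surplus carbohydrate is turned into fat by a short chain of enzymes. ATP citrate lyase (Acly) makes cytosolic acetyl-CoA from citrate, acetyl-CoA carboxylase (Acaca) makes malonyl-CoA from it, and fatty acid synthase (Fasn) joins these units to palmitate with NADPH that malic enzyme (Me1) helps to supply. Elovl6 lengthens palmitate to stearate, and stearoyl-CoA desaturase (Scd) puts the double bond in that makes oleate. Fads2 and Fads1, the delta-6 and delta-5 desaturases, and the elongase Elovl5 act on dietary polyunsaturated fatty acids. Srebf1 encodes SREBP1, a membrane-bound transcription factor that insulin induces and that activates the genes of this pathway. Scd was also among the genes of the study's own class signatures, which were picked on a part of these samples.

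SREBP1 is known to act with the factors NF-Y and Sp1, which bind CCAAT and GC boxes. The promoter table of RefSeq (build GRCr8) held 8 windows for 7 members, namely Fads2, Fads1, Scd, Elovl5, Me1, Acly and 2 starts of Srebf1. Fasn, Acaca and Elovl6 were not matched. The 250 bases before the start were searched on both strands for TCACNCCAC, a form of the sterol regulatory element, for the box of NF-Y, which reads CCAAT, for the E-box, which reads CACGTG, and for the GC box, which reads GGGCGG. None of the 8 windows held TCACNCCAC, which stood in 0.974% of the 33469 windows of the table. CCAAT stood in 5 of the 8 member windows and in 34% of all windows, GGGCGG in 6 of 8 and in 30.5%, and CACGTG in 1 of 8 (Elovl5) and in 5.59%. The 5 windows below are shown because they belong to the regulator, to the pathway's first enzyme and to the 3 enzymes of the polyunsaturated branch; capitals mark the CCAAT boxes, the E-box and the GC boxes on either strand. The windows were chr10:45519011-45519260, minus strand (Srebf1), chr10:85963632-85963881, minus strand (Acly), chr8:87670914-87671163, plus strand (Elovl5), chr1:216252442-216252691, plus strand (Fads1) and chr1:216172034-216172283, minus strand (Fads2).
Srebf1: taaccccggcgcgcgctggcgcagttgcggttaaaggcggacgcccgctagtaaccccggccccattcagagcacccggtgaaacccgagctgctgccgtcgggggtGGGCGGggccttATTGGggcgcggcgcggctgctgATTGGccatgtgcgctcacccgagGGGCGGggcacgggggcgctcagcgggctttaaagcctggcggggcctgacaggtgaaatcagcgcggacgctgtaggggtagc
Acly: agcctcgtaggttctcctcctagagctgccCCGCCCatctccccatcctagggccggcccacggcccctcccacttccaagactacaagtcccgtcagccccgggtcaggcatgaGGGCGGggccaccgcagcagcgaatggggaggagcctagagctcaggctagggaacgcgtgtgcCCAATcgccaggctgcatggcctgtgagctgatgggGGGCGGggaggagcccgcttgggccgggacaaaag
Elovl5: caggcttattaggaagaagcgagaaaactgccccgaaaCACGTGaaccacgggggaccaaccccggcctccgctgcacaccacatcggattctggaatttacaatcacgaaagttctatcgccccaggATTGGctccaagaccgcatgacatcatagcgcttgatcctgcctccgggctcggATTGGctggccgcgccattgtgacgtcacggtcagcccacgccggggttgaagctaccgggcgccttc
Fads1: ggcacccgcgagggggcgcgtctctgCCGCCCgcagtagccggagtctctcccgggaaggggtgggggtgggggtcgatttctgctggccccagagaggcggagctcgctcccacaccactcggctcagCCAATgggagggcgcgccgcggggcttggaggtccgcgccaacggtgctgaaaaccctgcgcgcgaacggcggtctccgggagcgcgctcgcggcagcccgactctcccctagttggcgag
Fads2: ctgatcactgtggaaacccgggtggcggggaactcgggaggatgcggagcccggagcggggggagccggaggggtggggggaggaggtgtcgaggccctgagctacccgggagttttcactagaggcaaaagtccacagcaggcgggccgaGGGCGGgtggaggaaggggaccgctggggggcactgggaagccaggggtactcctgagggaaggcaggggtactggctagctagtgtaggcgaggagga
The Srebf1 window held 2 CCAAT boxes and 2 GC boxes, and Acly held 1 CCAAT box and 3 GC boxes. Elovl5 held 2 CCAAT boxes and the E-box, Fads1 a CCAAT box and a GC box, and Fads2 a GC box. Of the windows not shown, that of Scd held none of the motifs searched and that of Me1 held 5 GC boxes. The other start of Srebf1 held 1 CCAAT box and 2 GC boxes. By gene, CCAAT stood in 4 of 7 members and GGGCGG in 5 of 7.

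Levels are the deposited log2 values, and a change is the treated mean minus the vehicle mean on that scale, with the standard error (SE) of a limma fit over all arrays. A change was called when its Benjamini-Hochberg adjusted p over all 15866 probe sets was below 0.05 and its size was at least 1.5-fold. Bulk liver was measured, so fewer hepatocytes and less RNA per hepatocyte cannot be told apart. Markers of hepatocytes (9 of 10 listed genes measured) averaged between 13.6 and 14.2 over all arrays, and those of adipose tissue (7 of 10 measured), which expresses most members, between 6.73 and 7.34. Skeletal muscle or pancreas markers stood at least 4-fold above the group median in 7 arrays, among them 1 of the 3 animals of Aap at 6 h and of Wy at day 1. Without those arrays the count of members lower than vehicle was 91 and that of members higher than vehicle was 37.

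Over the 980 changes of members, 91 (9.29%) were called lower, against 0.731% of all probe sets, and 38 (3.88%) were called higher, against 1.02%. At least 1 member was called in 38 of the 98 comparisons and in 18 of the 30 compounds. Only lower members were called in 17 comparisons, only higher ones in 13, and both in 8. The members did not follow a common direction. Fads2 was lower in 19 comparisons and higher in 5, Acly lower in 15 and higher in 0, and Scd lower in 12 and higher in 0. Fads1 was lower in 12 and higher in 2, Srebf1 lower in 12 and higher in 1, and Elovl5 lower in 8 and higher in 0. Fasn was lower in 5 and higher in 3, and Acaca lower in 4 and higher in 2. Me1 and Elovl6 ran the other way, Me1 being higher in 17 and lower in 2 and Elovl6 higher in 8 and lower in 2.

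**Figure D1:**
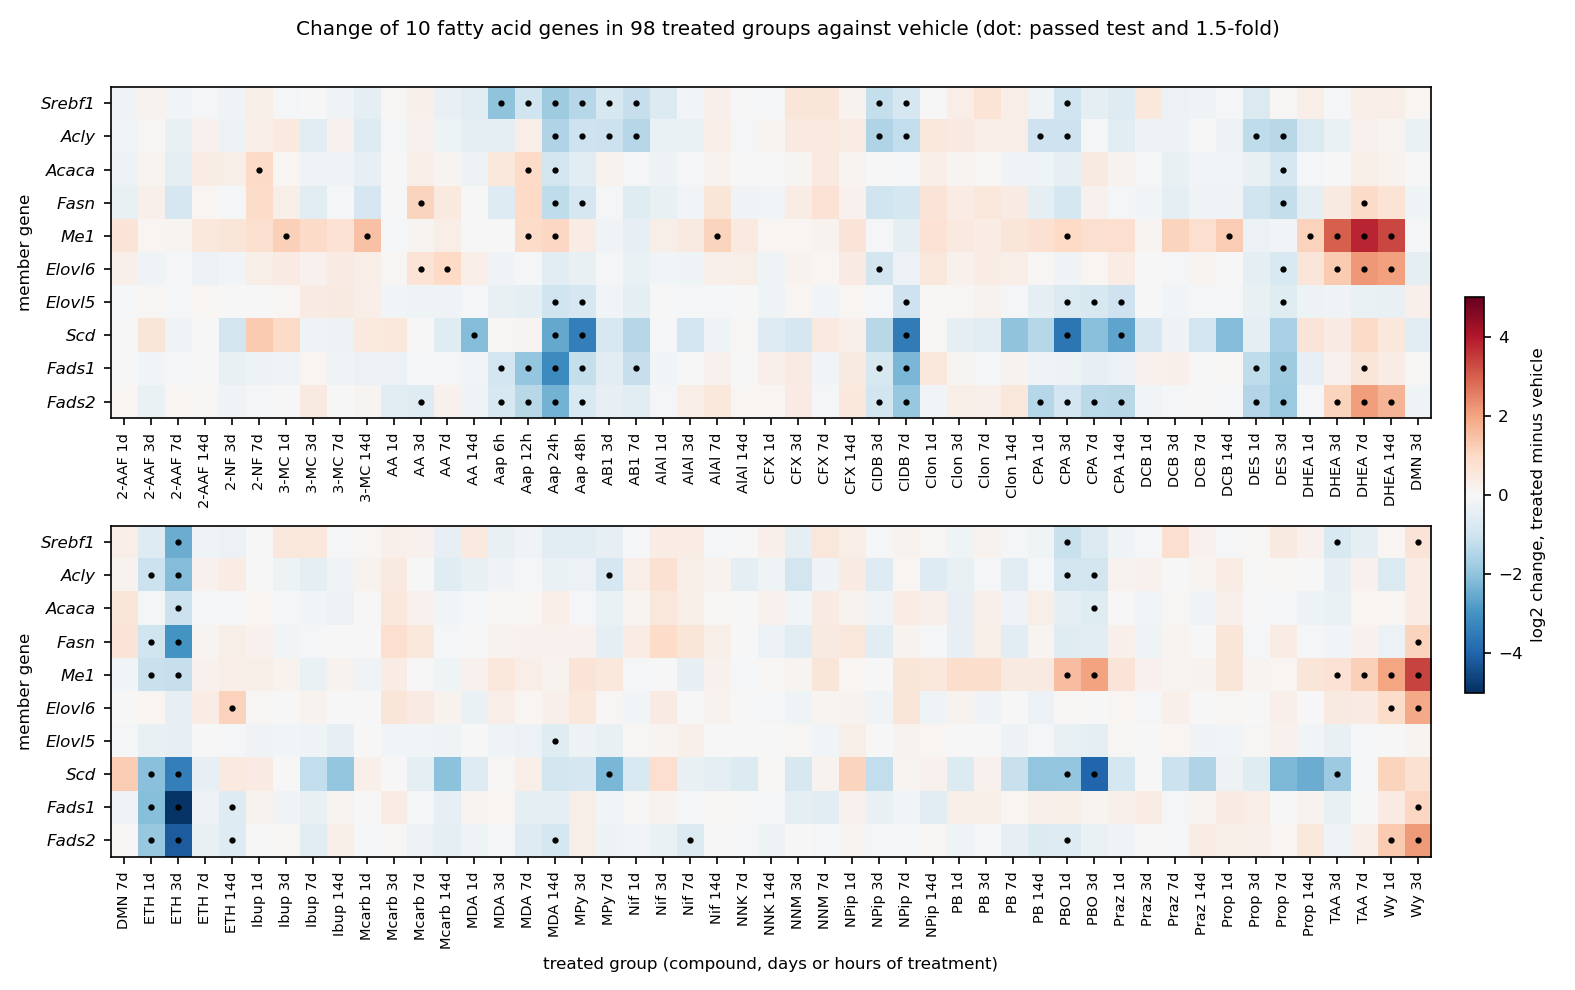
Change of each member (rows) in each of the 98 treated groups (columns), as the log2 difference of treated minus vehicle means; a dot marks a change that was called. Dots on blue cluster in ETH, Aap, DES, CIDB and CPA, and the darkest red lies in the Me1 row under DHEA and Wy.

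The members differed widely in how much they varied from animal to animal. Within vehicle groups the standard deviation of Scd was 0.80 on the log2 scale, larger than that of 99.9% of probe sets, and for Fasn and Acly it was 0.44 and 0.41. Fads1 (0.23), Fads2 (0.25) and Elovl5 (0.15) varied less. A change of Scd therefore needed to be larger than one of Elovl5 to be called: the SE for 3 against 3 animals was 0.71 for Scd and 0.12 for Elovl5.

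Ethionine, an antimetabolite of methionine, gave the lowest levels of most members. At day 3, 8 of the 10 members were lower and 0 higher, against 4.98% of all probe sets lower. Fads1 had 6.89, 7.00 and 6.90 in ETH livers, against 11.86, 11.68, 12.00 and 11.88 in CMC livers, a change of -4.92 ± 0.18 (SE; 30.3-fold; adjusted p = 4.96e-76). Fads2 had 7.30, 7.16 and 7.52 after ETH and 11.50, 11.44, 11.39 and 11.64 after CMC, a change of -4.16 ± 0.22 (17.9-fold; adjusted p = 1.05e-49). The 3 treated animals lay close together for both desaturases and far below every vehicle animal. With the spread taken from the compared groups alone, the adjusted p was 1.49e-08 for Fads1 and 1.12e-07 for Fads2 (limma).

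Scd had 10.46, 9.98 and 8.78 in ETH livers at day 3 and 13.31, 13.45, 12.62 and 13.20 in CMC livers, a change of -3.40 ± 0.66 (adjusted p = 3.46e-06). Fasn had 8.26, 8.74 and 8.45 after ETH, against 11.41, 11.33, 11.20 and 11.90 after CMC, a change of -2.98 ± 0.34. Its regulator Srebf1 changed by -2.49 ± 0.26, Acly by -2.17 ± 0.30, Me1 by -1.15 ± 0.28 and Acaca by -1.06 ± 0.19, and all 4 were called. For these 4 and for Scd and Fasn no ETH animal overlapped a vehicle animal. Elovl6 (-0.42) and Elovl5 (-0.42) were not called, although another Elovl5 probe set read -1.58 and was called. The count stayed at 8 with any 1 animal left out.

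At day 1 of ETH 6 members were already lower, against 4.39% of all probe sets. Fads1 had 9.82, 9.56 and 9.72 after ETH and 11.91, 11.78, 11.84 and 11.84 after CMC, a change of -2.14 ± 0.18. Fads2 changed by -1.91 ± 0.22, Me1 by -1.11 ± 0.28, Acly by -1.07 ± 0.30 and Fasn by -0.98. The ETH animals themselves differed in Scd, with 12.44, 11.05 and 9.27, against 13.36, 12.85, 13.21 and 12.56 in CMC livers (-2.08 ± 0.66, treated SD 1.59). Without the third ETH animal 3 members were called, as Scd (-1.25), Fasn and Acly were no longer called, and without the first vehicle animal Fasn was not called. With the spread taken from the compared groups alone Scd (adjusted p = 0.0776, limma) and Fasn (0.152) were not called, which left 4 members. Macrophage markers averaged 9.83 to 10.6 in ETH livers and 9.46 to 9.52 in CMC livers, and their part was not tested.

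At days 7 and 14 most members stood near their vehicle level in ETH livers although dosing went on. Fads1 differed by -0.28 at day 7 and by -0.64 at day 14, Scd by -0.39 and 0.49, and Fasn by 0.15 and 0.30. At day 14 Fads1 (-0.64 ± 0.20) and Fads2 (-0.65 ± 0.23) were still called lower and Elovl6 (1.16) was called higher. The difference between day 14 and day 1 was itself tested for each compound and member, last minus first time. For ETH it passed for Fads1 (1.5), Acly (1.46), Me1 (1.44), Fads2 (1.26) and Elovl6 (1.07).

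Other lipid genes were counted in the same comparisons. At day 3 of ETH 12 of 14 measured genes of cholesterol synthesis were lower and 0 higher (list median -1.22, against -0.03 over all probe sets), led by Idi1 (-2.62), Cyp51 (-2.55), Fdps (-2.48) and Ebp (-2.35). Of 31 lipogenesis partners 8 were lower and 3 higher, where 7.91% of all probe sets were higher. Thrsp, which promotes lipogenesis, changed by -2.41, the pyruvate kinase gene Pklr by -2.19 and Insig1, which holds SREBP in the endoplasmic reticulum, by -2.11, while Angptl8, an insulin-responsive secreted protein, changed by 4.46. Macrophage markers (7 of 10 measured) averaged 10.88 to 11.01 in ETH livers and 9.48 to 9.82 in CMC livers at day 3. Hepatocyte markers averaged 13.95 to 14.02 in ETH livers and 14.03 to 14.12 in CMC livers, and stellate and fibroblast markers 7.88 to 8.09 and 7.68 to 7.80. The part of these markers in the result was not tested.

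Acetaminophen was sampled within the first 48 h. At 6 h Srebf1 averaged 9.68 ± 0.14 in Aap livers and 11.68 ± 0.25 in saline livers (SD, n = 3 each), a change of -2.00 ± 0.28, and Fads1 (-0.95) and Fads2 (-0.79) were also lower. Without the Aap animal that carried muscle transcripts Srebf1 changed by -1.98. Fasn (-0.66), Acly (-0.49) and Elovl5 (-0.36) were not called at 6 h. Scd differed by 0.06 at 6 h and by 0.12 at 12 h.

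At 12 h, 3 members were lower, against 1.12% of all probe sets, and 2 were higher, against 0.8%. Fads1 had 10.20, 9.35 and 9.69 in Aap livers and 11.77, 11.87 and 11.37 in saline livers (-1.93 ± 0.20), and Fads2 changed by -1.38 ± 0.23. Acaca had 11.27, 11.45 and 10.95 in Aap livers and 10.18, 10.68 and 9.95 in saline livers, which was higher by 0.96 ± 0.21, and Fasn differed by 0.99 without passing (adjusted p = 0.0817). Srebf1 (-1.01 ± 0.28; 11.02, 9.32 and 10.96 in Aap livers, 11.21, 11.58 and 11.54 in saline livers) and Me1 (0.90) were called. The count fell to 3 without the second Aap animal or the third saline animal, each of which ended the calls of Srebf1 and Me1. Me1 was also not called without the first Aap or the first saline animal, and Srebf1 not without the second saline animal. With the spread taken from the compared groups alone, Fads1 and Fads2 were the 2 members called.

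At 24 h, 8 members were lower, against 4.08% of all probe sets, and 1 (Me1) was higher, against 6.72%. Fads1 had 7.76, 9.07 and 8.69 in Aap livers and 11.60, 11.69 and 11.84 in saline livers, a change of -3.20 ± 0.20 (9.21-fold; adjusted p = 1.57e-39). With the spread taken from the compared groups alone, its SE was 0.29 and its adjusted p 0.000495 (limma). Scd had 9.27, 10.90 and 10.89 after Aap, against 13.20, 12.79 and 12.77 after saline (-2.57 ± 0.71), and Fads2 had 9.02, 8.84 and 9.14, against 11.26, 11.50 and 11.28 (-2.34 ± 0.23). For each of the 3 the groups were far apart. Srebf1 had 9.45, 10.39 and 10.84 after Aap and 12.19, 12.13 and 11.69 after saline (-1.77 ± 0.28). Acly (-1.52), Fasn (-1.26), Elovl5 (-0.99) and Acaca (-0.93) completed the falls, while Me1 was higher by 1.02 ± 0.29. Elovl6 (-0.57) was called once the third Aap animal was left out. The lists of cell markers also stood apart at 24 h: hepatocyte markers averaged 13.92 to 14.02 in Aap livers and 14.06 to 14.09 in saline livers, and macrophage markers 9.80 to 9.91 in Aap livers and 9.99 to 10.07 in saline livers. Stellate and fibroblast markers (8 of 8 measured) averaged 7.34 to 7.61 in Aap livers and 7.70 to 7.77 in saline livers, and adipose markers 6.99 to 7.22 in Aap livers and 6.83 to 6.92 in saline livers. Gene by gene, 1 of the 7 adipose genes was called higher and 0 lower, with a list median change of -0.04. Of the 7 macrophage genes measured 2 were lower and 1 higher. The part of these marker lists in the result was not tested.

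At 48 h, 7 members were lower, against 4.03% of all probe sets. The desaturases had separated: Scd was lowest at this time, with 10.26, 8.94 and 9.37 in Aap livers and 13.45, 12.84 and 12.52 in saline livers (-3.41 ± 0.71), whereas Fads1 had 10.86, 9.71 and 11.42, against 11.91, 11.77 and 11.87 (-1.19 ± 0.20). Srebf1 had 10.25, 10.93 and 11.11 after Aap and 12.27, 12.33 and 11.97 after saline (-1.42 ± 0.28). Acly (-1.05 ± 0.32) and Fasn (-0.85) overlapped between groups, since 1 saline animal was low in both. The Fasn call was lost without the first or second animal of either group, Fads2 (-0.76) without the second Aap animal and Acly without the first saline animal, and Acaca was called without the third saline animal. With the spread taken from the compared groups alone 3 members (Scd, Elovl5 and Srebf1) were called. The difference between 48 h and 6 h passed for Scd (-3.47) and Acaca (-1.04).

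**Figure D2:**
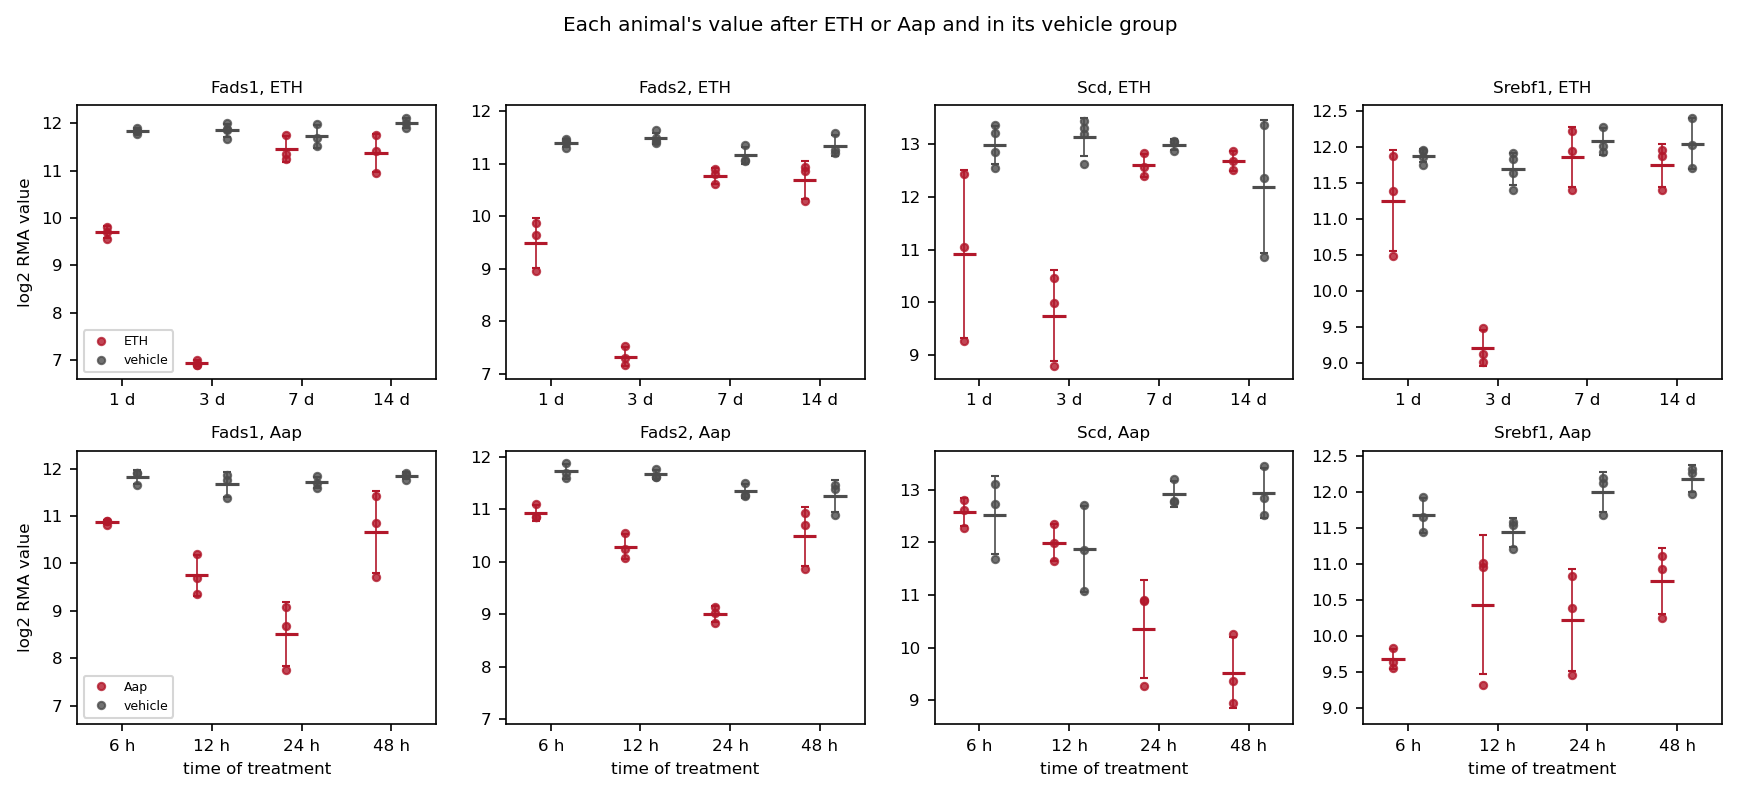
Log2 value of 4 members in each animal (points) with the group mean (bar) and SD (whisker), at each time of treatment with ETH (top) or Aap (bottom) beside its vehicle. After ETH the points part most at day 3 and lie near the vehicle points at day 7; after Aap Fads1 and Fads2 are lowest at 24 h and Scd at 48 h.

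Around the members, cholesterol synthesis followed part of this course in Aap livers. Of 14 genes 7 were lower at 12 h, 8 at 24 h and 2 at 48 h, and 0 were higher at any of the 3 times. At 24 h Fdft1 (-2.31), Cyp51 (-1.97), Idi1 (-1.52) and Nsdhl (-1.44) were the largest changes. Of 11 measured fasting genes 3 were higher and 2 lower at 24 h, where 6.72% of all probe sets were higher and 4.08% lower: Igfbp1, a secreted binder of insulin-like growth factors, was higher by 3.71 at 24 h, the asparagine synthetase gene Asns by 2.31 and the hormone gene Fgf21 by 1.47, while the bile acid enzyme gene Cyp7a1 changed by -1.91. Clock genes also differed at 24 and 48 h, among them Nr1d2 (1.38 and 1.78) and, at 48 h, Bmal1 (-1.41), and their part in the result was not tested.

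Diethylstilbestrol, a synthetic oestrogen, lowered 7 members at day 3, against 1.85% of all probe sets, with 0 higher. Fads2 had 9.03, 9.63 and 10.28 in DES livers and 11.50, 11.44, 11.39 and 11.64 in the same CMC livers as for ETH (-1.84 ± 0.22), and Fads1 had 9.41, 10.18 and 10.64, against 11.86, 11.68, 12.00 and 11.88 (-1.78 ± 0.18). Acly had 10.31, 10.46 and 10.78 after DES and 11.86, 11.79, 12.00 and 12.01 after CMC (-1.39 ± 0.30). No DES animal reached the vehicle range in these 3 genes. Fasn had 9.87, 10.27 and 10.69 after DES and 11.41, 11.33, 11.20 and 11.90 after CMC (-1.18 ± 0.34). Acaca (-0.84), Elovl6 (-0.75) and Elovl5 (-0.61) were also lower, whereas Srebf1 differed by 0.05. Scd had 10.79, 11.00 and 12.77 in DES livers and was not called (-1.63 ± 0.66, adjusted p = 0.102), but was called without the third DES animal (-2.25). The first DES animal carried 3 calls: without it 4 members were called, as Fasn, Elovl6 and Elovl5 dropped out, and without the second Elovl6 did. With the spread taken from the compared groups alone, Elovl6 was not called (adjusted p = 0.136, limma) and Scd was (0.0377). Of 14 cholesterol genes 11 were lower (Idi1 -1.94, Sqle -1.89, Msmo1 -1.80, Cyp51 -1.59), with 0 higher. At day 1, with 2 DES animals, Fads2 (-1.47), Acly (-1.28) and Fads1 (-1.28) were already lower.

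C.I Direct Black, an azo dye, lowered 6 members at day 7, against 1.61% of all probe sets, with 0 higher. Scd had 8.88, 7.66 and 8.02 in CIDB livers and 12.83, 9.71 and 12.49 in corn oil livers (-3.49 ± 0.71; 11.2-fold), where the second vehicle animal was itself low. Fads1 had 9.83, 9.81 and 8.66 after CIDB, against 12.04, 11.53 and 11.54 (-2.27 ± 0.20), and Fads2 had 9.81, 9.83 and 8.88, against 11.73, 11.11 and 11.41 (-1.91 ± 0.23). Elovl5 changed by -1.05 ± 0.12, Acly by -1.24 ± 0.32 and Srebf1 by -0.84. For the Elovl5 probe set used, this was the largest fall in the series. The other Elovl5 probe set read -0.92 here and was lower still at day 3 of ETH (-1.58). Acly and Srebf1 were not called without the third CIDB animal or the first vehicle animal, and Srebf1 not without the second CIDB animal. Fasn (-0.86) was called without the first CIDB or the second vehicle animal. Acly (adjusted p = 0.0573, limma) and Srebf1 (0.0993) were also not called in a fit of the compared groups alone, which left 4 members. Here the cholesterol genes were not low: 4 of 14 were higher, against 2.38% of all probe sets, and 0 lower, among them Sqle (1.51) and Idi1 (1.41). Bile duct markers (6 of 7 measured) averaged 6.78 to 7.10 in CIDB livers and 6.41 to 6.50 in vehicle livers, and macrophage markers 9.83 to 9.98 and 9.33 to 9.79. The part of these markers was not tested.

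At day 3 of CIDB, Acly (-1.51 ± 0.32), Srebf1 (-1.18), Elovl6 (-0.93), Fads2 (-0.90) and Fads1 (-0.79) were lower. Fads1 and Elovl5 fell further by day 7, with a difference of last minus first time of -1.47 for Fads1 and -0.97 for Elovl5 that passed the test.

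Cyproterone acetate, a synthetic steroid, and piperonyl butoxide, a pesticide synergist, both lowered Scd at day 3. Me1 was called higher at each sampled day of PBO, but at day 3 alone of CPA. At day 3 of CPA 5 members were lower, against 1.71% of all probe sets, and 1 was higher, against 1.12%. Scd had 8.15, 8.08 and 8.49 in CPA livers and 9.91, 13.20 and 12.43 in corn oil livers (-3.60 ± 0.71; 12.2-fold). The treated animals were alike and the vehicle animals were not (SD 1.72). Acly had 10.99, 10.38 and 10.97 after CPA and 11.44, 12.24 and 11.77 after corn oil (-1.04 ± 0.32). Srebf1 had 10.63, 10.89 and 10.93 after CPA and 11.62, 12.03 and 11.83 after corn oil (-1.01 ± 0.28). Fads2 (-0.95 ± 0.23) and Elovl5 (-0.74 ± 0.12) were lower too, and Me1, with 10.64, 9.78 and 9.88 after CPA and 8.54, 9.89 and 8.87 after corn oil, was higher by 1.01 ± 0.29 with overlapping groups. Acly was lost without CPA animal 2 or vehicle animal 2 or 3, Me1 without CPA animal 1 or vehicle animal 1 or 3, and Srebf1 without the first CPA or the second vehicle animal. Me1 was also not called in a fit of the compared groups alone (adjusted p = 0.115, limma), and its other probe set (0.95) was not called at day 3. Macrophage markers averaged 9.19 to 9.65 in CPA livers and 9.90 to 10.3 in corn oil livers, and hepatocyte markers 13.82 to 14.01 and 14.11 to 14.12. Stellate and fibroblast markers averaged 7.19 to 7.50 in CPA livers and 7.55 to 7.77 in corn oil livers, and bile duct markers 6.55 to 6.63 and 6.37 to 6.50. The part of these markers was not tested. At every sampled day of CPA Fads2 was lower, by 1.44, 0.95, 1.36 and 1.39 at days 1, 3, 7 and 14, and Elovl5 was called at days 3, 7 and 14, with -0.74, -0.80 and -1.02.

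Piperonyl butoxide gave the largest Scd change of the series. At day 3 Scd had 9.44, 9.60 and 8.54 in PBO livers and 13.31, 13.45, 12.62 and 13.20 in CMC livers (-3.95 ± 0.66; 15.4-fold; adjusted p = 6.30e-07), and Me1 had 11.27, 11.37 and 10.78, against 8.92, 8.82, 9.26 and 9.57 (2.00 ± 0.28). These were the same CMC livers as for ETH and DES at day 3. Acly (-0.91) and Acaca (-0.60) were lower, while Fads1 differed by 0.13. At day 1 Scd (-1.93 ± 0.66), Srebf1 (-1.13), Acly (-0.94) and Fads2 (-0.66) were lower and Me1 was higher by 1.56 ± 0.28. After PBO 4 members were lower and 1 higher at day 1, against 2.31% and 4.48% of all probe sets, and 3 were lower and 1 higher at day 3, against 1.13% and 1.42%. Of 22 measured PPARA targets 14 were higher at day 1 and 12 at day 3 of PBO, beside the same shares of all probe sets, with 0 lower.

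**Figure D3:**
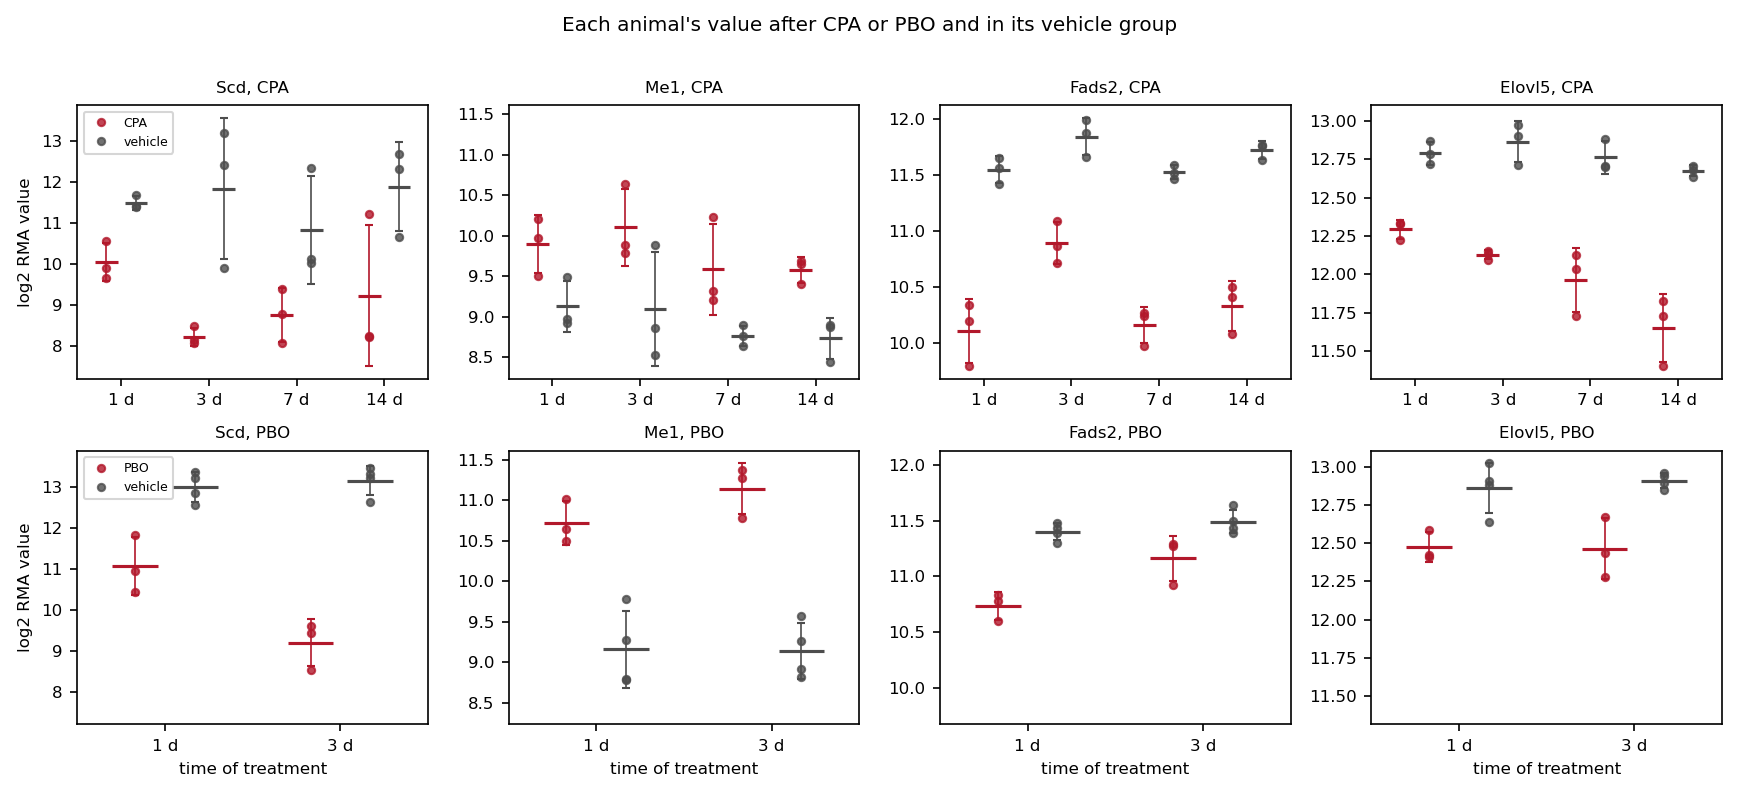
Log2 value of 4 members in each animal (points) with the group mean (bar) and SD (whisker) after CPA (top) or PBO (bottom) beside its vehicle, by day. Scd lies below and Me1 above the vehicle mean at every day, and the corn oil animals of CPA spread over more of the Scd axis than the CMC animals of PBO.

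Wy-14643 and dehydroepiandrosterone raised members. Wy-14643 is an agonist of PPARA, the nuclear receptor that senses fatty acids and drives their oxidation, and DHEA at high dose is known in rodents as a peroxisome proliferator. Of the 22 measured PPARA targets 21 were higher at day 3 of Wy and 20 at day 7 of DHEA, with 0 lower. The acyl-CoA thioesterase gene Acot1 was higher by 7.57 and 7.49 and the pantetheinase gene Vnn1 by 4.82 and 4.87. In ETH livers, where members fell, 12 of the 22 targets were higher and 1 lower at day 3. For day 1 of ETH the counts were 1 higher and 9 lower. Of all probe sets 7.91% were higher and 4.98% lower at day 3 of ETH, and 4.57% and 4.39% at day 1. The part of these targets in the changes of members was not tested.

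At day 3 of Wy 6 members were higher, against 2.44% of all probe sets, and 0 lower. Me1 had 11.60, 12.38 and 12.33 in Wy livers, against 8.44 to 8.99 with a median of 8.71 in 6 CMC arrays (3.38 ± 0.26; 10.4-fold; adjusted p = 4.62e-29). These 6 arrays may be pairs from shared livers, so the SE may be too small. Fads2 had 12.89, 13.37 and 13.48 after Wy, against 10.87 to 11.27 with a median of 11.17 (2.14 ± 0.20), and Elovl6 had 7.64, 8.65 and 8.71, against 6.05 to 6.84 with a median of 6.45 (1.89 ± 0.21). The groups were separate in all 3 genes. Fasn had 11.80, 11.91 and 11.75 after Wy and 10.43 to 11.09 with a median of 10.57 after CMC (1.12 ± 0.31), while its other probe set read 0.64 and was not called. Fads1 was higher by 1.02 ± 0.17, and Srebf1 by 0.63 ± 0.25 with overlapping groups and an adjusted p of 0.0499. Srebf1 was not called without any of the 3 Wy animals or without vehicle array 3, 4, 5 or 6, each left out alone. Leaving out 1 vehicle array need not leave out its animal. In a fit of the compared groups alone Srebf1 was not called (adjusted p = 0.0734, limma), whereas Scd (0.77) was (0.0108). The adjusted p of Me1 in that fit was 1.7e-07. Me1 (1.97), Fads2 (1.32) and Elovl6 (0.92) were already higher at day 1, and the Me1 difference of day 3 minus day 1 (1.41) passed.

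At day 7 of DHEA 5 members were higher, against 3.32% of all probe sets, and 0 lower. Me1 had 12.63, 12.62 and 12.56 in DHEA livers, against 8.56 to 8.95 with a median of 8.82 in 6 CMC arrays (3.80 ± 0.26; 13.9-fold), the largest rise of a member in the series. These 6 arrays, too, may be pairs from shared livers. Elovl6 had 9.10, 8.33 and 8.73, against 6.27 to 7.16 with a median of 6.40 (2.16 ± 0.21), and Fads2 had 13.20, 13.21 and 13.29, against 11.02 to 11.37 with a median of 11.10 (2.10 ± 0.20). Again no animal of one group entered the range of the other. Fasn had 12.05, 11.82 and 12.01 after DHEA and 10.74 to 11.18 with a median of 11.04 after CMC (0.97 ± 0.31), and Fads1 was higher by 0.61. The other Fasn probe set read 0.86 and was not called. Fads1 was lost without vehicle array 2, 3 or 4 and Fasn without the first DHEA animal. Scd lay above the vehicle animals in all 3 DHEA livers (0.94 ± 0.61) but was not called, except in a fit of the compared groups alone (adjusted p = 0.00165, limma). Me1 was higher by 1.16, 2.99, 3.80 and 3.35 at days 1, 3, 7 and 14, and Elovl6 was called at days 3, 7 and 14 with 1.33, 2.16 and 2.04. Fads2 differed by -0.06 at day 1 and was higher by 1.11, 2.10 and 1.68 at the later days, and the difference of day 14 minus day 1 passed for Me1 (2.19), Fads2 (1.74) and Elovl6 (1.43).

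**Figure D4:**
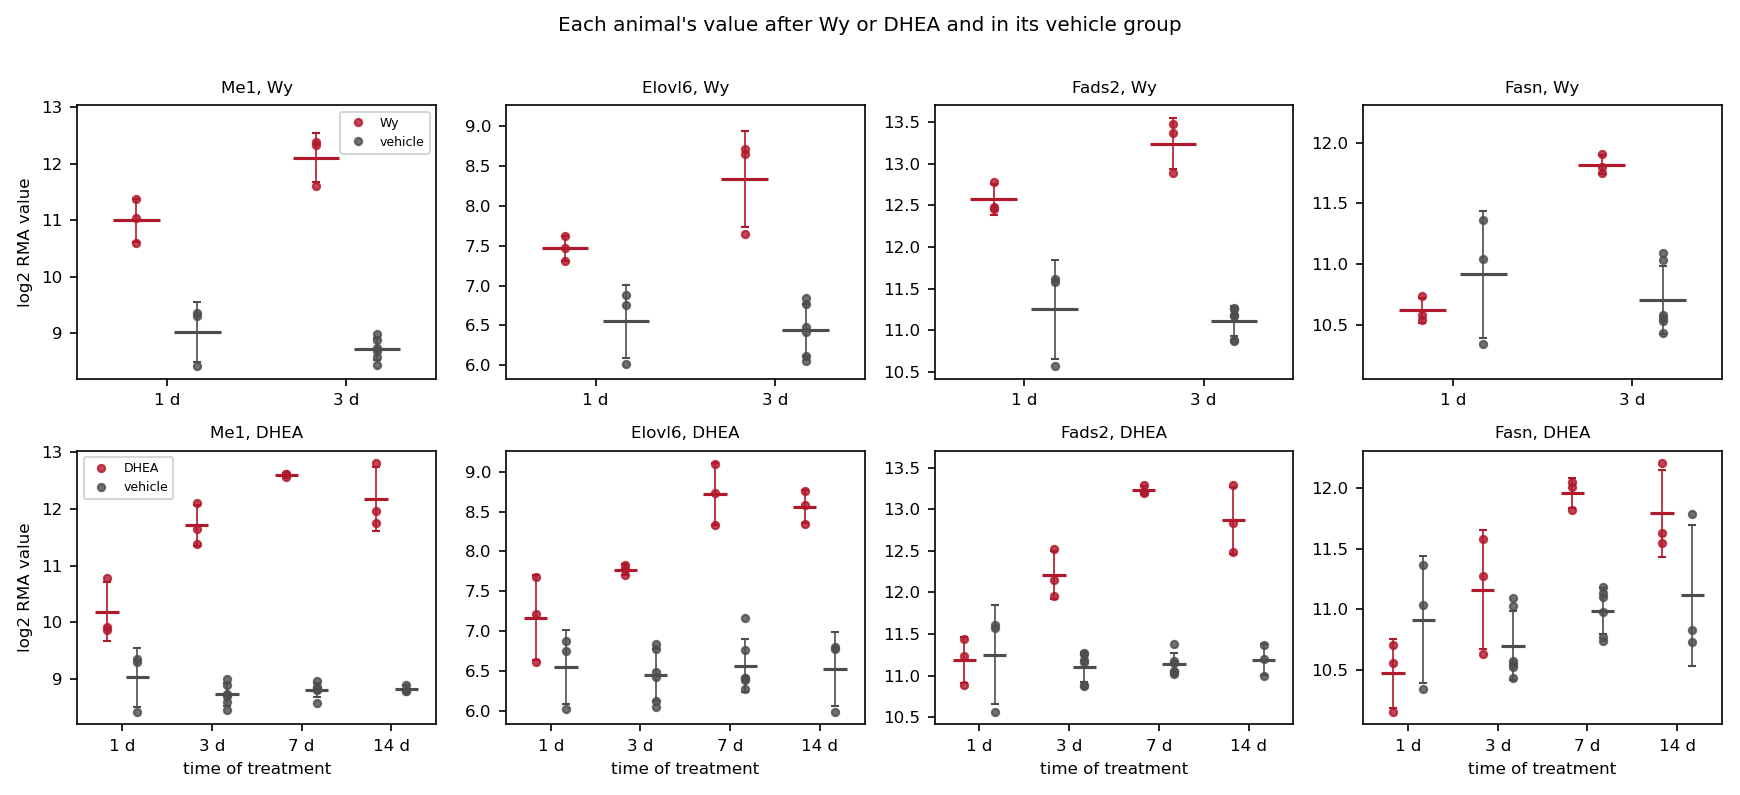
Log2 value of 4 members in each animal (points) with the group mean (bar) and SD (whisker) after Wy (top) or DHEA (bottom) beside its CMC vehicle, by day. Me1 lies above the vehicle animals at every day, Fads2 from day 1 with Wy and from day 3 with DHEA, and Fasn lies apart at day 3 of Wy and day 7 of DHEA.

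Around the members, 8 of 31 lipogenesis partners were higher and 2 lower at day 3 of Wy, and 9 were higher and 1 lower at day 7 of DHEA. The shares of all probe sets called lower were 1.41% in Wy and 2.58% in DHEA. Cd36, a fatty acid uptake protein, was higher by 3.07 and 4.12, the acyl-CoA synthetase gene Acsl3 by 2.15 and 1.62 and the lipid droplet coat gene Plin2 by 1.20 and 1.37. Pklr changed by -1.25 after Wy and by -1.69 after DHEA, opposite to Fasn. Of the cholesterol genes 1 of 14, Fdps, was higher in each (0.90 and 0.62) and 0 were lower. Hepatocyte markers averaged 13.8 to 13.9 in Wy livers and 14.0 to 14.1 in CMC livers, and 13.6 to 13.8 in DHEA livers and 14.0 to 14.1 in CMC livers. Adipose markers averaged 7.14 to 7.18 in DHEA livers and 6.80 to 6.92 in CMC livers, bile duct markers 6.63 to 6.69 in DHEA livers and 6.42 to 6.55 in CMC livers, and macrophage markers 9.18 to 9.49 in Wy livers and 9.52 to 10.11 in CMC livers. Gene by gene, 1 of 7 adipose genes was called higher in DHEA livers and 0 lower, with a list median change of 0.04. For bile duct it was 1 of 6 higher and 0 lower (0.10). The part of these markers was not tested. Wy, DHEA, AA, AB1, Mcarb, MPy and TAA at day 3 were set against the same 6 CMC arrays, which may come from fewer animals.

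Smaller sets of members moved with other compounds. Me1 was higher, with no other member called, after 3-MC at days 1 (1.19) and 14 (1.45), DCB at day 14 (1.28), AlAl at day 7 (1.13) and TAA at day 7 (1.21). AB1 lowered Acly (-1.06 at day 3, -1.44 at day 7) and Srebf1 (-0.79 and -1.17), and Fads1 at day 7 (-1.14). Acetamide raised Fasn at day 3 (1.10 ± 0.31) and Elovl6 at days 3 (0.66) and 7 (0.99), with Fads2 lower at day 3 (-0.63), and at day 14 Scd was lower (-2.18 ± 0.71). Scd was also lower after MPy at day 7 (-2.28) and TAA at day 3 (-1.82). Acaca was higher after 2-NF at day 7 (0.95 ± 0.21). Elovl5 (-0.61) and Fads2 (-0.87) were lower after MDA at day 14, and Fads2 after Nif at day 7 (-0.70).

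Scd also stood low in several groups that were not called. It differed by -2.47 ± 0.71 after Prop, -2.02 after Clon, -1.92 after Ibup and -1.51 after Praz at day 14, with adjusted p of 0.292, 0.412, 0.381 and 0.94. These 4 groups share 3 CMC animals, which averaged 12.6 ± 0.58 (SD). CFX and Nif at day 14 were set against the same 3 animals, and Scd differed there by 0.24 and -0.47. At day 14 Mcarb (-2.03), PB (-1.96) and DCB (-2.17) were likewise not called. The treated animals spread widely in some of them, with an SD of 1.42 after Prop, 1.70 after Praz and 1.5 after Mcarb.

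The vehicle groups showed the level from which the compounds started. Scd ranged from 9.71 to 13.20 with a median of 11.89 in 30 corn oil arrays, from 8.25 to 13.62 with a median of 12.86 in 86 CMC arrays and from 11.07 to 13.45 with a median of 12.76 in 12 saline arrays. For the comparison, day 3 and day 7 groups were averaged within a study set, which gave 3 corn oil and 6 CMC sets. Of the 10 members 0 were called lower and 0 higher, where 0% and 0% of all probe sets were called by limma. At an unadjusted p under 0.05 there were 3 members and 514 of 15866 probe sets, and with arrays as replicates and the set as a random block 0 members were called.

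By study set Scd averaged 11.75 ± 0.36 in corn oil and 12.74 ± 0.42 in CMC (SD, n = 3 and 6 sets), a difference of -0.99 ± 0.23 (SE). The exact two-sided permutation test over sets gave p = 0.0238 (0.238 adjusted over the 10 members), where 0.0119 is the smallest p that 84 arrangements can give. The corn oil sets lay at 11.34, 11.92 and 12.01, and of the CMC sets 1 lay at 11.94 and the other 5 between 12.62 and 13.07. Acaca differed by -0.27 ± 0.10, Acly by -0.27 ± 0.11 and Fasn by -0.29 ± 0.16, with exact permutation p of 0.0714, 0.0833 and 0.19. Fads1 (0.01 ± 0.04) and Me1 (-0.03 ± 0.11) were nearly level. Vehicle and study set cannot be told apart, since each set had 1 vehicle.

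**Figure D5:**
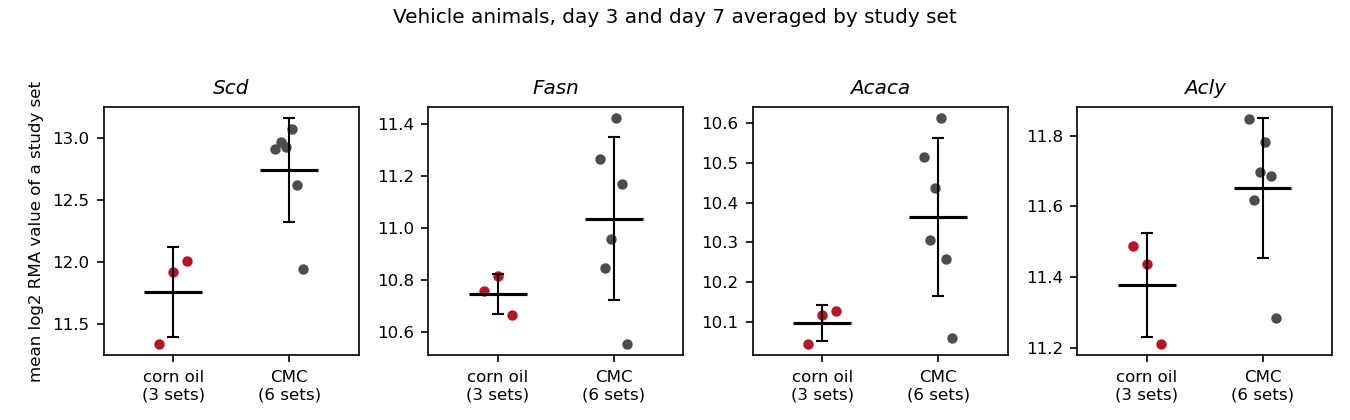
Mean log2 value of vehicle animals per study set (points) for 4 members, corn oil at left and CMC at right, with the mean over sets (bar) and SD (whisker). For Scd 1 CMC set overlaps the corn oil sets and the other 5 lie above them.

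Over the 4 saline times Elovl5 was the 1 member that passed a moderated F test (adjusted p = 0.00115), as did 6.56% of all probe sets. It averaged 13.05 ± 0.07, 12.47 ± 0.19, 12.89 ± 0.17 and 12.84 ± 0.08 at 6, 12, 24 and 48 h (SD, n = 3 each), lowest at 12 h. Without the third animal of every group 0 members passed, and with the saline arrays alone 3 did. Fasn (11.01, 10.59, 11.52 and 11.63) was also lowest at 12 h but did not pass (adjusted p = 0.139).

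Within vehicle groups the members moved together from animal to animal. The deviations of each array from its group mean were correlated for all 45 pairs over the 30 corn oil, 86 CMC and 12 saline arrays, and 41 pairs were positive at an adjusted p below 0.05 (two-sided permutation within groups, Benjamini-Hochberg over 45), with 0 negative. Arrays of the CMC groups of 6, which may share livers, were permuted as separate animals, so these p-values may be too small. Pearson's r ran from 0.14 to 0.86 with a median of 0.48, while the median over all 54189255 pairs of genes was 0.00 and 0.705% of them reached 0.48. The tightest pair was Fasn and Acly, with r = 0.86 (rho = 0.83), permutation p = 1e-05 (the smallest that 100000 draws can give), and r = 0.85 without the 2 animals farthest in Fasn. Its r was 0.88 in corn oil, 0.87 in CMC and 0.89 in saline animals. Fasn and Acaca (0.84), Acaca and Acly (0.77) and Scd and Fasn (0.70) followed. Srebf1 with Fads1 (0.22) or Fads2 (0.23), and Elovl6 with Elovl5 (0.14), did not pass. Elovl5 with Srebf1 (r = 0.23) lay at the threshold, with a permutation p of 0.0513 after adjustment, and with 5 other sets of random draws 41 or 42 pairs passed. All 41 kept their sign without the 2 animals farthest in the first gene, and 38 had it within each vehicle.

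The 10 other genes whose deviations correlated most with the mean of the 10 standardised members were Fabp5 (r = 0.76), Tkt (0.75), Pgd (0.74), Pklr (0.72), Nsdhl (0.67), Secisbp2l (0.66), Dbi (0.66), Scly (0.65), Azin1 (0.63) and Plxna2 (0.63), over the same animals, which share vehicles and study sets. Fabp5 binds fatty acids, Dbi binds acyl-CoA, Pgd and Tkt are enzymes of the pentose phosphate pathway, which also supplies NADPH, Pklr is liver pyruvate kinase and Nsdhl an enzyme of cholesterol synthesis.

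Between the first and the last time of a compound 9 of 300 member tests were higher at the last, against 0.58% of all probe set tests, and 4 were lower, against 0.482%. They lay in ETH, DHEA, Wy, Aap and CIDB, with the values given above. Where a gene had a second probe set, its calls never opposed those of the one used, but not every call was shared. The second Fasn probe set was not called in Wy at day 3 (0.64) or DHEA at day 7 (0.86), and was called in Aap at 12 h (1.37). That of Srebf1 was not called in CIDB at day 7 (-0.61) or Aap at 12 h (-0.68). It was called in ETH at day 1 (-0.92) and DHEA at day 7 (0.93). The second Elovl5 probe set was also called in ETH at day 1 (-1.27), and the second Acaca probe set in DHEA at day 7 (0.80). The probe sets used for these 2 genes were not called there. The correlation of changes over the 98 comparisons was 0.97 for Fasn, 0.95 for Me1, 0.90 for Srebf1, 0.55 for Acaca and 0.52 for Elovl5, whose other probe set was lower in 16 comparisons and higher in 3.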

How the data were processed

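The 293 treated and 30 corn oil, 86 CMC and 12 saline arrays measured rat liver. The authors scanned them, and the deposited log2 values come from the robust multi-chip average (RMA), named in the submitters' processing notes, which corrects background, normalizes between arrays and summarises each probe set. No version of it is given in the sources used here. RMA draws low signals together, so changes of dim probe sets such as that of Elovl6 can be understated. Array medians lay between 7.38 and 7.49, no 2 arrays were identical, and the number of unmatched columns was 0. Arrays have no read depth, and the number of animals limits the precision. Nothing names separate litters, batches or arrays that share a liver. The p-values therefore take each array as an animal. Those of the treated groups rest on a spread within groups that was pooled over all 136 groups, vehicle groups included. This pooled spread can be smaller or larger than that of the animals compared.

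Probe sets were named through the platform annotation, and older symbols were replaced by way of the gene's identifier. Of 15866 probe sets 12783 had 1 symbol, 312 several and 2771 none there. Groups and vehicle groups were taken from the labels. A linear model with a mean for each group was fitted to every array at once (limma 3.58.1 under R 4.3.3) and moderated by empirical Bayes, with residual degrees of freedom of 285 and a prior of 4.67. The SE thus rests on the variance over all groups. Vehicles were compared over study sets, and correlations were permuted 100000 times within groups. Text covers, by rule, the 10 treated groups with the most called members (ties by summed size of change), the 3 largest rises and falls of each member, and the 4 largest changes of a gene list. Further groups with called members were added after their values were seen. The members and lists were chosen with earlier results of these data known. The fit was checked on simulated data. Alternatives were the compared groups alone, quantile normalization, a mean of at least 6, a replicate block, the mean of all probe sets of a gene, another variance prior, no fold limit, adjustment over all comparisons and animals or sets left out. Leaving out arrays with muscle or pancreas transcripts was an alternative chosen after seeing the data. The plots used matplotlib 3.10.9.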

Additional observations from a re-analysis of the deposited data

Results flagged for a closer look

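For 13 member changes the effect at the last time differed from that at the first, by a test of the difference itself (limma, adjusted p below 0.05 and at least 1.5-fold, out of 300 tests). The value is the log2 change at the last minus that at the first time. In ETH it was 1.5 for Fads1 (changes of -0.64 and -2.14 at days 14 and 1), 1.46 for Acly (0.39 and -1.07), 1.44 for Me1 (0.32 and -1.11), 1.26 for Fads2 (-0.65 and -1.91) and 1.07 for Elovl6 (1.16 and 0.08). In DHEA it was 2.19 for Me1 (3.35 and 1.16), 1.74 for Fads2 (1.68 and -0.06) and 1.43 for Elovl6 (2.04 and 0.62). In Wy it was 1.41 for Me1 (3.38 and 1.97). In Aap it was -3.47 for Scd (-3.41 and 0.06 at 48 and 6 h) and -1.04 for Acaca (-0.51 and 0.53). In CIDB it was -1.47 for Fads1 (-2.27 and -0.79) and -0.97 for Elovl5 (-1.05 and -0.08). In the vehicle groups of 4 or 6 arrays no array stood apart from the others in any member by Dixon's test (60 tests). This test could hardly show an animal read on a pair of arrays, as may hold in the groups of 6. Smaller groups were not tested.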

How the results depend on the processing

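The counts of members lower than vehicle (91) and members higher than vehicle (38) became 89 to 108 and 37 to 40 under the other fits, normalization, filters and thresholds, and 66 to 80 lower and 29 to 32 higher without replicate 1, 2 or 3 of every group. With the replicate block they were 94 and 39, and the difference of last and first time gave 13 calls with it. The labels' numbers were not taken as pairs, since same-numbered treated and vehicle animals did not deviate together (mean correlation 0.0131, every pair over 0.1 in 4 of 98 comparisons). With the spread of the compared groups alone, Aap at 48 h had 3 members called, Aap at 12 h had 2, ETH at day 1 and CIDB at day 7 had 4 each, CPA at day 3 had 5 and DHEA at day 7 had 6. DES at day 3 and Wy at day 3 kept their counts with 1 member exchanged (Elovl6 or Srebf1 lost, Scd gained in both). With single animals or replicate numbers left out, the members called ranged from 4 to 8 in DES at day 3, 4 to 8 in Aap at 48 h, 3 to 6 in CPA at day 3, 3 to 5 in Aap at 12 h, 3 to 7 in ETH at day 1, 4 to 7 in CIDB at day 7, 8 to 10 in Aap at 24 h, 4 to 5 in DHEA at day 7, 5 to 6 in Wy at day 3 and 8 to 8 in ETH at day 3. The saline times gave 3 members with the saline arrays alone and 0 to 1 without a replicate. The time difference gave 9 to 13 calls without a replicate and 15 with a mean of at least 6. Of 45 pairs 41 or 42 passed with other random draws, chosen after seeing the data, 17 in corn oil animals alone, 34 in CMC animals alone, 42 after quantile normalization and 39 without the 2 farthest animals. No called member of the 10 treated groups changed direction under these settings: of the recomputed values 1122 kept their call and 102 lost it. Corn oil against CMC gave 0 members under every setting.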
